A study of Mus musculus with 2 samples.

Results

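The genes described here were 44 genes of the eye, 20 of the lens and 24 of the retina, taken from a list of symbols and found in an RNA-seq table of 23571 genes. All 44 symbols were present in the table, and a symbol with several RefSeq transcripts was represented by the one read most. The lens genes were 2 alpha, 6 beta and 8 gamma crystallins and 4 genes of fibre cell structure. The retina genes were 11 of the phototransduction cascade, 5 of its shut-off and calcium feedback, 3 of the outer segment, 2 transcription factors and 3 of the visual cycle.

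RNA was sequenced from mTEChi, the thymic medullary epithelial cells with high MHC class II, after knockdown of Clp1, a factor of the complex that cuts and polyadenylates the 3' end of pre-mRNAs. The Clp1 knockdown (Clp1 KD) library came from GFP+ mTEChi, in which small hairpin RNAs against Clp1 and a green reporter (ZsGreen) were transcribed from the doxycycline-inducible TRE3G promoter, and the Ctr library came from GFP- mTEChi of the same thymus. Both groups thus came from 1 lentigenic mouse, grown from a B6 oocyte transduced with a lentivector that also carried the TetOn3G transactivator under the EF1 promoter. From the age of 3 weeks the mouse ate pellets with doxycycline (2 g per kg) over 2 weeks, so that the Ctr cells had received doxycycline as well and were separated only by the absence of green fluorescence. Cells of both groups were sorted as CD45-negative with high MHC class II (I-A/E) and low or intermediate Ly51. There was 1 library per group, so no difference has a replicate check and no p-value was computed.

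The lens is a clear tissue because its fibre cells hold crystallins, soluble proteins at very high concentration, and lose their organelles. The retina detects light in rods and cones, where an opsin activates a G protein (transducin), transducin activates a cGMP phosphodiesterase, and the fall of cGMP closes cation channels. Medullary thymic epithelial cells transcribe many such genes of other organs, in large part through the transcriptional regulator Aire, and present their products to developing T cells. Autoimmune attack on the retina is part of the disease of mice that lack Aire, and the interphotoreceptor retinoid-binding protein encoded by Rbp3 is a known target.

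Of the sequences, the coding starts of the gamma crystallins are shown first, because these genes are near copies of each other and a 50-base read can belong to more than 1 of them. They come from the mm9 (NCBIM37) transcripts of GENCODE vM1 on chromosome 1, where Cryge, Crygd, Crygc, Crygb and Cryga lie in a row on the minus strand between 65095128 (end of Cryge) and 65149947 (start of Cryga) and Crygf lies apart on the plus strand (65973096 to 65974881). The first 30 coding bases follow, 5' to 3', with capitals at the 3 positions where the 6 genes are not all alike, and Crygd, Cryge and Crygf share 1 sequence there.
Cryga: atgggAaagatcaccttctACgaggaccgc
Crygb: atgggAaagatcaccttctTCgaggaccgc
Crygc: atgggGaagatcaccttctTCgaggaccgc
Crygd: atgggGaagatcaccttctATgaggaccgc
Cryge: atgggGaagatcaccttctATgaggaccgc
Crygf: atgggGaagatcaccttctATgaggaccgc

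Over the whole coding sequence the identity between pairs of these 6 genes ran from 80.0% (Crygc and Crygf) to 98.1% (Cryge and Crygf). Of all 50-base windows of the transcript, those found exactly in another transcript were 46.5% for Cryge, 35.1% for Crygf, 34% for Crygd, 29.97% for Crygb, 24% for Crygc and 5.73% for Cryga. No window of the other 10 crystallins was shared, and among the retina genes the highest shares were 1.42% (Gngt1) and 1.04% (Grk1). Values of Crygb to Crygf are therefore uncertain as to which gene a read came from. Cryga shared few windows with other protein-coding transcripts, the only ones searched, but its exons overlap another gene on the same strand, as given below.

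The other sequences shown are promoter windows of retina genes around TAATCC or its reverse complement GGATTA, the core that the homeodomain of Crx and its relative Otx2 binds. Promoters were those of RefSeq on GRCm38.p6, from 250 bases before to 50 bases after the start of transcription, searched on both strands. Among the 24 retina genes, 16 had an entry and 8 of these (50%) held the core, against 2 of 19 lens genes with an entry (10.5%, Mip and Crygs) and 2199 of 27025 genes overall (8.14%). The windows below are written along the gene's own strand with the core in capitals, for 4 genes chosen after their values were seen, 2 higher and 2 lower in Clp1 KD. They lie at chr1:87803583-87803608 (plus strand, Sag), chr7:15879961-15879986 (minus strand, Crx), chr14:33953924-33953949 (plus strand, Rbp3) and chr17:47400648-47400673 (minus strand, Guca1a).
Sag: aagaggtttaGGATTAaaaaaaaaaa
Crx: accttccctgGGATTAcccttccaga
Rbp3: gaattagacaGGATTAaaggcttagc
Guca1a: tgttaagaagGGATTAgcagactgca

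Relative to the start of transcription the core began at -87 in Sag, -21 in Crx (with another copy at -94), -69 in Rbp3 and -57 in Guca1a. Genes with the core did not share a direction. Among the 8 retina genes that held it, Sag and Crx were higher in Clp1 KD, Cnga1, Gngt1, Rbp3 and Guca1a were lower, Rpe65 was under 2-fold and Gnat2 had no read. A match of letters is a description of the promoter and does not show that a factor was bound.

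The libraries held 37524730 (Clp1 KD) and 28464803 (Ctr) reads over RefSeq transcripts. Clp1 itself had 812 reads in Clp1 KD and 1573 in Ctr, 39.7% of the Ctr level. All 14 markers of mTEChi were read in both libraries, among them Aire with 8264 reads in Clp1 KD and 7462 in Ctr (log2 ratio -0.23). Of these markers 4 were called higher (Epcam, Cd40, Krt5 and Krt14) and Cd86 lower. Markers of other cells were also read, and most were lower in Clp1 KD. All 9 endothelial genes were lower (2358 scaled reads summed in Clp1 KD and 24892 in Ctr), as were all 4 measured red cell genes (2072 and 62036), 8 of 12 thymocyte genes (4637 and 15397), 7 of 10 fibroblast and mural genes (10669 and 20304), 4 of 6 B cell genes (785 and 1920) and 5 of 8 dendritic cell and macrophage genes, with 1 higher (1434 and 2733). Neuronal and neuroendocrine genes went the other way, with 6 of 12 higher and 2 lower (24964 and 14250), and glial genes had 5 of 8 lower and 1 higher (12094 and 6326), with Gfap at 0 reads in Clp1 KD. The higher glial gene, Slc1a3, alone gave 9593 of the summed glial reads in Clp1 KD and 2627 in Ctr. The part of these cells in the eye genes was not tested, and fewer cells of a type and less RNA per cell cannot be told apart in sorted bulk samples.

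Eye genes were read in both libraries, mostly at low levels and with strong differences in both directions. A gene was called higher or lower in Clp1 KD with at least 10 reads over both libraries, a ratio of 2-fold or more after scaling to depth, and an exact (Clopper-Pearson) 95% interval of the ratio that excluded no difference. Intervals and floors cover counting error only, as reads were amplified by PCR and carried no molecular identifiers. Of the 44 genes, 39 had 10 reads or more, and 28 of these were called (71.8%), 10 higher and 18 lower, while 11 were not called. Over all 18993 genes with 10 reads or more 41.6% were called, 22% higher and 19.7% lower. Genes with few reads were called more often in the whole table, and in the ranges under 1000 reads the share of the eye genes lay close to that of all genes. With 10 to 49 reads over both libraries 11 of 13 eye genes were called, against 72.3% of all genes in that range. The counts were 11 of 15 against 69.6% from 50 to under 200 reads, 4 of 8 against 46.4% from 200 to under 1000 reads, and 2 of 3 against 21% with 1000 or more. Counts for smaller groups of the eye genes, given below, are to be read beside these shares. Summed over all 44 genes, scaled reads were 4241 in Clp1 KD and 4892 in Ctr, a ratio of 0.867.

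**Figure D1:**
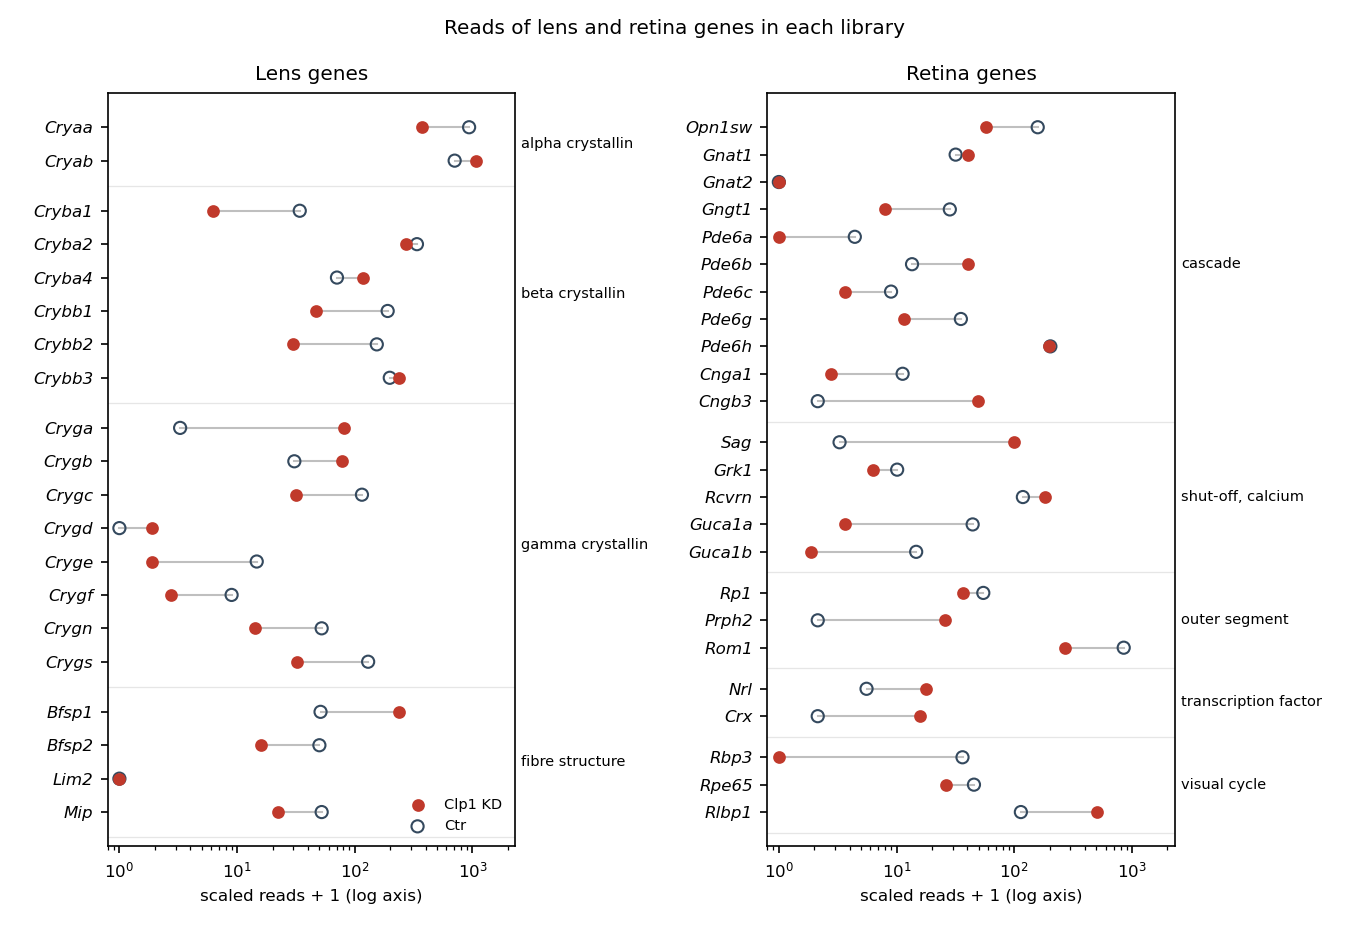
Reads of each lens gene (left) and retina gene (right) after division by the size factor, plus 1, on a log axis, with filled circles for Clp1 KD and open circles for Ctr and 1 library per group. Grey lines join the libraries; Cryga, Sag and Cngb3 lie far to the right in Clp1 KD and Rbp3 lies at 0 reads there.

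**Figure D2:**
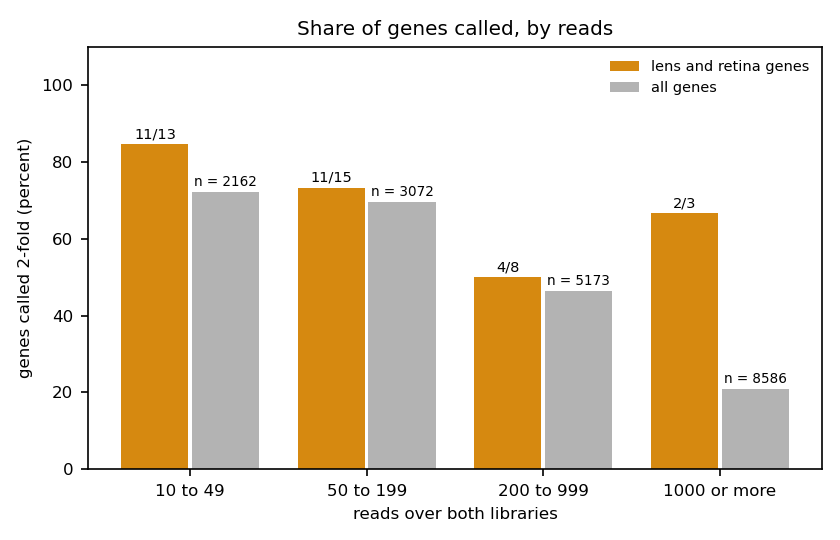
Percent of genes called 2-fold higher or lower in Clp1 KD over Ctr, by the reads of a gene over both libraries, for the 39 lens and retina genes with 10 reads or more (orange, with called and measured numbers) and for all genes (grey, with n). Among all genes 72.3% were called with 10 to 49 reads and 21% with 1000 or more.

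Lens genes were lower in Clp1 KD more often than higher. Of the 17 with 10 reads or more, 10 were called lower, 3 higher and 4 neither. Their median log2 ratio, with 0.5 added to each scaled count, was -1.34, against 0.026 over all genes with 10 reads or more. For the 22 retina genes with 10 reads or more, 8 were called lower, 7 higher and 7 neither, with a median of -0.65, the same with Rbp3, which had no read in Clp1 KD, set at its bound. The retina median depended on genes with few reads, as it was 0.35 with a minimum of 50 reads (4 higher, 2 lower). The lens median was thus 0.68 below that of the retina genes, a description of 2 lists in 1 pair of libraries without a test, and 0.31 below it once the trend of the ratio on GC content was subtracted. Counted by reads the 2 groups lay close to each other: the summed scaled reads of lens genes were 2655 in Clp1 KD and 3116 in Ctr (ratio 0.852), and those of retina genes 1587 and 1776 (ratio 0.893). The alpha crystallins gave 1441 of the 2655 scaled lens reads in Clp1 KD and 1640 of the 3116 in Ctr.

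**Figure D3:**
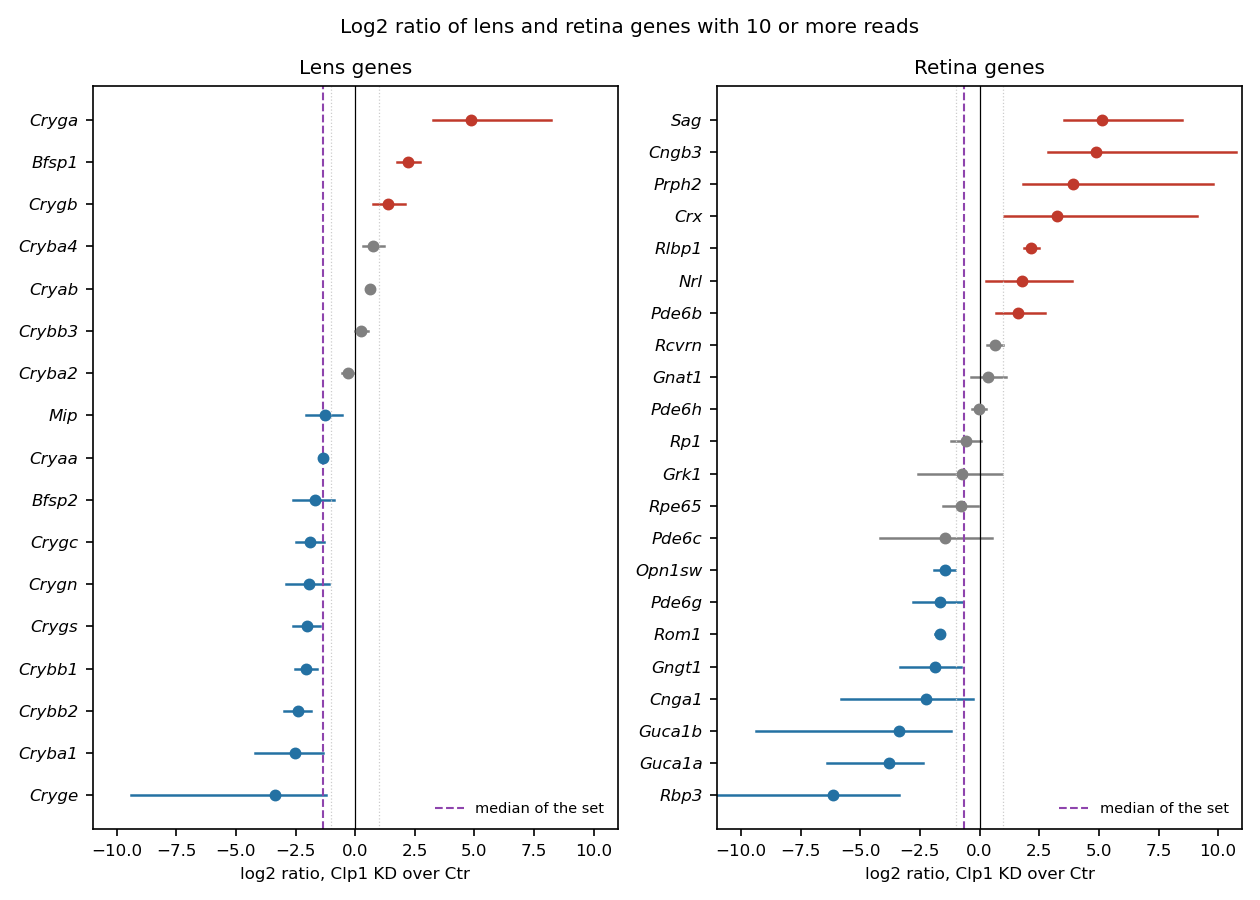
Log2 ratio of Clp1 KD over Ctr for the 17 lens and 22 retina genes with 10 reads or more, with 0.5 added to each scaled count for the points and the exact 95% counting interval of the reads as bars (bars that reach the edge go on beyond it). Red points are called higher, blue points lower and grey points neither, and dashed lines mark the medians of -1.34 (lens) and -0.65 (retina).

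Per length, crystallins had the highest level in either library, Cryab in Clp1 KD and Cryaa in Ctr. Cryab, alpha B crystallin, a small heat shock protein that is also made in heart and muscle, had 27.5 RPKM in Clp1 KD and 18.3 in Ctr, and Cryaa, the alpha A chain largely confined to the lens, 9.54 and 24.5 RPKM. So the order of the 2 chains of alpha crystallin was turned round between the libraries. Cryba2 had 11.7 RPKM in Clp1 KD and 14.8 in Ctr. The highest retina gene was Pde6h in Clp1 KD (10.7 RPKM, and 11.1 in Ctr), and Rom1 in Ctr (5.33 RPKM in Clp1 KD and 17.2 in Ctr). The median lens gene had 1.44 RPKM in Clp1 KD and 2.06 in Ctr, and the median retina gene 0.252 and 0.213. Of the 44 genes, 31 lay under the median level of all genes, 11 of the lens and 20 of the retina.

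Among the alpha crystallins, which keep other lens proteins from aggregating, Cryaa fell and Cryab did not pass the 2-fold rule. Cryaa had 421 reads in Clp1 KD and 820 in Ctr, a log2 ratio of -1.34 (95% interval -1.51 to -1.17). Cryab had 1222 reads in Clp1 KD and 618 in Ctr, a log2 ratio of 0.61 (0.46 to 0.75). The intervals of the 2 chains did not overlap. Of 12 markers of striated muscle, where Cryab is also made, 6 were lower and 2 higher (5941 scaled reads summed in Clp1 KD and 10818 in Ctr), and their part in the value of Cryab was not tested. Of 6 related small heat shock genes, Hspb2, the neighbour of Cryab, rose, with 207 reads in Clp1 KD and 69 in Ctr (1.21, 0.81 to 1.62), as did Hspb3, with 23 and 3 (2.56, 0.83 to 4.94). Hspb1, Hspb6, Hspb7 and Hspb8 were not called, with ratios between -0.51 and 0.97.

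Of the 6 beta crystallins, structural proteins of the lens fibre, 3 fell and 3 were not called. Over all genes, 69.6% with 50 to under 200 reads and 46.4% with 200 to under 1000 were called. Crybb2 had 33 reads in Clp1 KD and 134 in Ctr (-2.40, -2.996 to -1.84), and Crybb1 had 52 and 166 (-2.05, -2.53 to -1.60). Cryba1, which gives rise to the A3 and A1 chains, had 6 reads in Clp1 KD and 29 in Ctr (-2.65, -4.21 to -1.36). The others stayed within 2-fold: Cryba4 had 134 reads in Clp1 KD and 61 in Ctr (0.76, 0.31 to 1.22), Crybb3 had 270 and 173 (0.26, -0.017 to 0.55), and Cryba2 had 308 and 295 (-0.32, -0.55 to -0.081). Cryba4 with Crybb1 and Crybb2 with Crybb3 are neighbours on mm9 chromosome 5, and neighbours did not share a call. Crybb1 (112684835 to 112698605, plus strand) fell beside Cryba4 (112675513 to 112681538, minus strand), which did not. Crybb2 (113487278 to 113499137) fell beside Crybb3 (113504859 to 113510604), both on the minus strand.

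All 6 gamma crystallins with 10 reads or more were called, 4 lower and 2 higher. Each had under 200 reads, and calls were common there: 72.3% of all genes with 10 to 49 reads and 69.6% with 50 to under 200. Gamma crystallins pack most densely and are made in the core of the lens. Cryga had the largest ratio of the lens genes, with 92 reads in Clp1 KD and 2 in Ctr (log2 ratio 5.15, 3.25 to 8.21). Crygb also rose, with 88 reads in Clp1 KD and 26 in Ctr (1.38, 0.74 to 2.07). Next to them on chromosome 1, Crygc fell, with 35 reads in Clp1 KD and 100 in Ctr (-1.89, -2.49 to -1.32), and Cryge had 1 read in Clp1 KD and 12 in Ctr (-3.96, -9.38 to -1.21). The remaining members of the cluster were hardly read, Crygf with 2 reads in Clp1 KD and 7 in Ctr and Crygd with 1 and 0. Without Cryga to Crygf, 1 lens gene (Bfsp1) remained among those called higher. The gamma genes outside the cluster both fell. Crygs, the gamma S chain of the outer lens, had 36 reads in Clp1 KD and 113 in Ctr (-2.03, -2.61 to -1.48). Crygn, which is related to both the beta and the gamma chains, had 15 and 45 (-1.96, -2.91 to -1.09). Exons of Cryga overlap those of D630023F18Rik on the same strand over 350 bp (47.9% of its annotated exons), a gene with 161 reads in Clp1 KD and 99 in Ctr, and reads of the overlap cannot be assigned to 1 of the 2 genes.

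The genes of fibre structure split as well. Bfsp1 and Bfsp2 encode filensin and phakinin, the partners that assemble into the beaded filament of lens fibres. Bfsp1 had 270 reads in Clp1 KD and 44 in Ctr and rose by 2.24 (1.78 to 2.73), whereas Bfsp2 had 17 and 43 and fell by 1.72 (-2.62 to -0.88). Mip, aquaporin 0 and the most abundant membrane protein of the fibre cell, had 24 reads in Clp1 KD and 45 in Ctr (-1.29, -2.06 to -0.54). Lim2, another fibre membrane protein, had 0 reads in either library. Exons of Bfsp2 and Mip overlap antisense genes over 201 and 1223 bp, and the sources used here do not say whether reads were counted by strand.

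In the phototransduction cascade, 6 of 9 genes with 10 reads or more were called (66.7%), 4 lower and 2 higher. That lay near the share of all genes with few reads, 72.3% with 10 to 49 and 69.6% with 50 to under 200. Opn1sw, the short-wavelength cone opsin, fell, with 65 reads in Clp1 KD and 138 in Ctr (-1.46, -1.91 to -1.03). Of its reads, 0 in Clp1 KD and 5 in Ctr lay in the earlier exons, so the difference is one of last-exon reads. Its annotated exons overlap the antisense gene Calu over 397 bp, 15.5% of its exons, and Calu had 5914 reads in Clp1 KD and 3096 in Ctr. The transducin genes were read unevenly: Gnat1, the rod alpha subunit, had 45 reads in Clp1 KD and 27 in Ctr (0.36, -0.36 to 1.10), and Gngt1, the rod gamma subunit, had 8 and 24 (-1.96, -3.33 to -0.76). Gnat2, the cone alpha subunit, had 0 reads in both.

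Subunits of the phosphodiesterase did not share a direction. Of the rod enzyme, the catalytic subunit Pde6b had 45 reads in Clp1 KD and 11 in Ctr (1.65, 0.68 to 2.75) and the inhibitory subunit Pde6g 12 and 30 (-1.70, -2.80 to -0.69), so that 1 was called higher and the other lower. The second catalytic subunit, Pde6a, had 0 reads in Clp1 KD and 3 in Ctr. For the cone enzyme, the inhibitory Pde6h was nearly equal, with 225 reads in Clp1 KD and 177 in Ctr (-0.032, -0.32 to 0.26). The cone catalytic subunit Pde6c had 3 and 7 reads (-1.60, -4.18 to 0.53). The channel genes differed more strongly: Cngb3, the cone beta subunit, had 55 reads in Clp1 KD and 1 in Ctr (5.40, 2.86 to 10.7), and Cnga1, the rod alpha subunit, had 2 and 9 (-2.55, -5.80 to -0.28). Grouped by cell, the rod genes of the cascade gave 1 higher and 3 lower of 5, and the cone genes 1 higher and 1 lower of 4.

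Of the 5 genes that end and adjust the light response, 1 rose and 2 fell. Most of them had 10 to 49 reads, a range in which 72.3% of all genes were called. Sag, arrestin-1 or S-antigen, which ends the signal of the activated visual pigment and is a classic target in experimental uveitis, had 112 reads in Clp1 KD and 2 in Ctr (5.43, 3.54 to 8.49), a ratio close to that of Cngb3, with overlapping intervals. Both guanylate cyclase activators, the calcium sensors that restore cGMP, fell. Guca1a had 3 reads in Clp1 KD and 38 in Ctr (-4.04, -6.38 to -2.39), and Guca1b had 1 and 12 (-3.96, -9.38 to -1.21). These genes lie next to each other on mm9 chromosome 17, Guca1b at 47522342 to 47529916 on the plus strand and Guca1a at 47531509 to 47537533 on the minus strand. Rcvrn, recoverin, the calcium sensor that holds back the visual pigment kinase, had 209 reads in Clp1 KD and 103 in Ctr (0.64, 0.30 to 0.997), and the kinase gene Grk1 itself 6 and 8 (-0.79, -2.60 to 0.92).

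Prph2 and Rom1 encode the partner tetraspanins of the outer segment disc rim, and they were called in opposite directions. Prph2 had 28 reads in Clp1 KD and 1 in Ctr (4.43, 1.83 to 9.78). Rom1 was the retina gene with the most reads, 305 in Clp1 KD and 746 in Ctr, and fell by 1.67 (-1.87 to -1.47). Rp1, a microtubule protein of the axoneme, had 41 reads in Clp1 KD and 47 in Ctr (-0.58, -1.22 to 0.060), a near balance that hid a split inside the transcript, described below.

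Both photoreceptor transcription factors were higher in Clp1 KD, from few reads. Crx, the homeodomain factor of rods and cones, had 17 reads in Clp1 KD and 1 in Ctr (3.71, 1.03 to 9.09). Nrl, the leucine zipper factor that sets rod fate, had 19 and 4 (1.87, 0.28 to 3.88).

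The visual cycle, which rebuilds the light-sensitive retinoid, gave 1 gene higher, 1 lower and 1 not called. Over all genes, 72.3% with 10 to 49 reads, 69.6% with 50 to under 200 and 46.4% with 200 to under 1000 were called. Rlbp1, the carrier protein of the cis retinoid in pigment epithelium and Müller glia, had 579 reads in Clp1 KD and 99 in Ctr and rose by 2.17 (1.86 to 2.49), or 4.50-fold, with the narrowest interval of the genes that rose. Rpe65, the isomerase of the pigment epithelium, had 29 and 39 (-0.81, -1.55 to -0.075). Rbp3 had 0 reads in Clp1 KD and 31 in Ctr, at least 13.4-fold lower against a floor of 3 reads in Clp1 KD.

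Of the 28 called genes, 10 had 3 reads or fewer in 1 library, 5 of them in Ctr (Cryga, Cngb3, Sag, Prph2 and Crx) and 5 in Clp1 KD (Cryge, Cnga1, Guca1a, Guca1b and Rbp3). Their ratios have wide intervals. Without these 10 genes, a setting added after the values were seen, 3 retina genes were called higher and 4 lower, and the lens counts were less affected, as 2 of its genes were left out.

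The reads were next read by part of the transcript, since the deposited table counts the 5'UTR, the earlier exons, the last exon up to its proximal poly(A) site and the distal 3'UTR behind it. A distal 3'UTR was annotated for 1 lens gene and 10 retina genes only, and for the others the whole last exon was counted. In the 20 lens genes, 57.8% of reads in Clp1 KD and 54.3% in Ctr fell in the last exon without any distal 3'UTR, and 34.8% and 41.5% in earlier exons. For the 24 retina genes the shares were 56.8% and 43.7% in that part of the last exon, and 36.7% and 44.5% in earlier exons. These shares, like those of the lens genes, pool reads over genes, so that genes with many reads weigh most. Rlbp1 gave 389 of the 1001 retina reads in that part of the last exon in Clp1 KD. Rom1 gave 430 of the 672 retina reads in earlier exons in Ctr. The shares thus do not show a shift common to the retina genes. With both libraries pooled and 1 read enough, 4 of the 42 genes with any read had reads in 1 part only, and 38 in more. Within a single library the reads of several genes lay in 1 part. Cnga1, for one, had all 9 Ctr reads in earlier exons and both of its 2 Clp1 KD reads in the last exon.

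Both sections of a transcript, earlier exons and upstream last exon, held 10 reads or more over both libraries in 22 of the genes. The sign of the log2 ratio was the same in both sections for 18 of these and opposite for 4 (18.2%), close to the 17.1% of 13709 genes overall. The call was the same direction in both for 11 (50%), against 26.3% of all those genes and 51.7% of those with 20 to under 200 reads in the compared sections. They were Cryga, Bfsp1, Sag, Cngb3 and Rlbp1 (higher) and Cryaa, Crybb1, Crybb2, Crygs, Mip and Rom1 (lower). Rp1 alone of the 22 was called in opposite directions, as were 1.17% of all those genes and 4.45% of those with 20 to under 200 reads. Its earlier exons had 4 reads in Clp1 KD and 46 in Ctr (log2 ratio with 0.5 added -3.72), and its upstream last exon 37 and 1 (4.33). By these 2 sections, the libraries held mostly reads of different parts of this gene. The shorter annotated isoform of Rp1 (NM_001195662) had 4 reads in Clp1 KD and 46 in Ctr (-3.90, -5.84 to -2.45). These numbers equal those of the earlier exons, so they may be the same reads and are no second observation.

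Other genes had unequal ratios along their length without opposite calls. For Crygb, earlier exons had 17 reads in Clp1 KD and 26 in Ctr, and the last exon 71 and 0, so its rise rested on the last exon alone. Rpe65 had 28 and 19 reads in earlier exons and 1 and 20 in the last exon. In Crygn the fall lay in the earlier exons (4 reads in Clp1 KD and 36 in Ctr), while its last exon had 11 and 9. Cryba2 had 181 and 211 reads in earlier exons and 118 and 79 in the last exon. Of the genes with few reads, Rbp3 had all 31 Ctr reads in the distal 3'UTR and none in its earlier exons, and Crx had 15 of its 17 Clp1 KD reads in the distal 3'UTR. The Ctr reads of Rbp3 therefore show no coding part of that gene, and its called difference is one of distal 3'UTR reads. Nrl had 17 reads in Clp1 KD and 0 in Ctr in the upstream last exon, 0 and 3 in the 5'UTR, and 0 in earlier exons in both. Its called difference is thus one of last-exon reads.

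**Figure D4:**
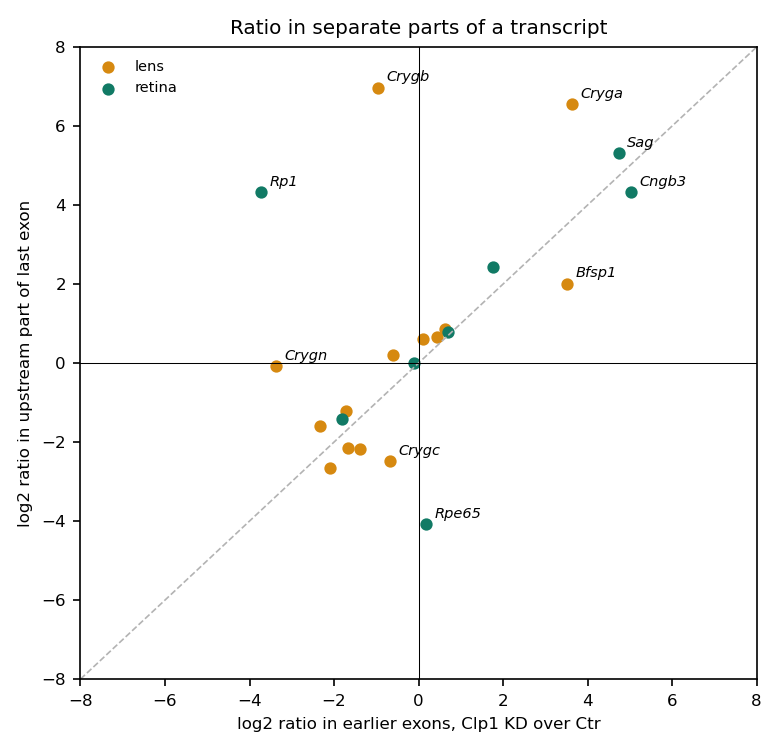
Log2 ratio of Clp1 KD over Ctr in the earlier exons (x axis) and in the upstream last exon (y axis), with 0.5 added to each scaled count, for the 22 lens (orange) and retina (green) genes with 10 reads or more in each section. Points near the dashed line have the same ratio in both sections, as Sag and Rom1 do, and Rp1 (-3.72 and 4.33) and Crygb lie at the upper left.

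A distal 3'UTR was annotated for 11 of the 44 genes, and in Opn1sw alone both libraries held 10 reads or more on each side of the proximal poly(A) site. Opn1sw had 39 upstream and 20 distal reads in Clp1 KD, against 72 upstream and 57 distal reads in Ctr. Its d3'UTR ratio, the distal read density over that of the upstream last exon, was 0.486 in Clp1 KD and 0.751 in Ctr. The distal share of these reads was 33.9% (22.1% to 47.4%, exact) in Clp1 KD and 44.2% (35.5% to 53.2%) in Ctr, and the intervals overlapped. Mip, with fewer reads, had 3 upstream and 9 distal reads in Clp1 KD (ratio 0.953) and 12 and 6 in Ctr (0.159). Its distal shares, 75% (42.8% to 94.5%) in Clp1 KD and 33.3% (13.3% to 59.0%) in Ctr, overlapped as well. Exons of both genes overlap antisense genes, over 397 bp for Opn1sw and 1223 bp (57.0% of its exons) for Mip. Whether reads were counted by strand is not known, so these ratios cannot be tied to poly(A) site use of Opn1sw and Mip alone. The distal part of Rcvrn, at 22 bp, is shorter than a read and could hold none.

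The study's list of Aire-sensitive transcripts with a proximal poly(A) site, chosen on other libraries, held 9 of the 44 genes, Mip and 8 retina genes (Gngt1, Pde6a, Rcvrn, Rp1, Prph2, Nrl, Crx and Rbp3). Of the 8 with 10 reads or more, 3 were higher (Prph2, Nrl and Crx), 3 lower (Mip, Gngt1 and Rbp3) and 2 neither. Over all 644 genes of that list with 10 reads or more, 27.5% were higher and 39.8% lower. The crystallins could not be on the list, since none has an annotated distal 3'UTR, and their absence says nothing of Aire.

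Beyond the 44 genes, further genes of the lens and retina were read from lists that were not picked for their direction in these libraries, though earlier results of the data were known. Of 33 other lens genes, 26 had 10 reads or more, and 6 were higher and 2 lower. That is 30.8% called, against 41.6% of all genes with 10 reads or more. Grifin, a galectin-related protein of lens fibres, had 80 reads in Clp1 KD and 21 in Ctr (1.55, 0.84 to 2.32). Efna5, an ephrin needed for fibre packing, had 394 and 138 (1.14, 0.85 to 1.43), and Cryz, an enzyme recruited as a crystallin in guinea pig, had 581 and 220 (1.02, 0.80 to 1.25). Pitx3, a lens transcription factor that acts on fibre differentiation, fell, with 3 reads in Clp1 KD and 51 in Ctr (-4.47, -6.79 to -2.84). The other lower gene, Pax6, the eye field regulator, had 4 and 25 reads (-3.02, -5.01 to -1.49) and is named after its values were seen.

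Of 53 other retina genes, 44 had 10 reads or more, and 17 were higher and 8 lower. That is 56.8% called, against 41.6% of all genes with 10 reads or more and 69.6% of those with 50 to under 200 reads. Opn4, melanopsin of the intrinsically light-sensitive ganglion cells, had 228 reads in Clp1 KD and 0 in Ctr, or at least 58.5-fold higher if Ctr is set to the floor of 3 reads. Opn1mw, the medium-wavelength cone opsin, had 104 and 0 (at least 26.7-fold higher), and Nr2e3, the rod nuclear receptor that works with Crx and Nrl, had 79 and 0 (at least 20.3-fold higher). So the medium-wavelength cone opsin was read in Clp1 KD alone, while its short-wavelength partner Opn1sw was lower there. Rdh5, a retinol dehydrogenase of the pigment epithelium, had the same 79 and 0 reads, and Slc24a2, the calcium exchanger of cones, had 53 and 0 (at least 13.6-fold higher). Cabp4, a calcium sensor of the photoreceptor synapse, had 68 reads in Clp1 KD and 2 in Ctr (4.71, 2.80 to 7.78). In the other direction, Fscn2, an actin bundler of the photoreceptor, had 1 read in Clp1 KD and 132 in Ctr (-7.42, -12.7 to -4.92), and Tulp1, a protein of the connecting cilium region, had 1 and 74 (-6.59, -11.9 to -4.07). Gngt2, the cone transducin gamma subunit, had 85 and 333 (-2.35, -2.71 to -2.00), the same direction as the rod subunit Gngt1, and Grk4, a receptor kinase, had 8 and 43 (-2.80, -4.10 to -1.70). Best1, a channel gene of the pigment epithelium, had 56 reads in Clp1 KD and 90 in Ctr (-1.06, -1.57 to -0.57).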

How the data were processed

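Total RNA of the sorted cells was made into low-input libraries with transposase fragmentation and sequenced in single 50-base reads. Per the submitters' processing notes, Bowtie 1.0.0, bedtools and DESeq were used with the mm9 genome. The authors deposited whole-number counts of reads per RefSeq transcript and per transcript part, without normalization. Their table of fold changes and p-values was not used. The treatment of strand and of reads with several matches was not given in the sources used here.

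Of 30794 transcripts, 30216 had a symbol; the others counted as genes of their own. Counts were divided by median-of-ratios size factors (1.14 for Clp1 KD and 0.877 for Ctr), so that a floor of 3 reads was 2.63 and 3.42 scaled reads. RPKM values used the total reads of each library. Each log2 ratio has the exact Clopper-Pearson 95% interval of the Clp1 KD share of a gene's reads. The procedure was tried on simulated counts that held counting error alone. Such counts cannot show how PCR copies or variation between libraries affect the calls. Python 3.11.15 with scipy 1.17.1 was used, and edgeR 4.0.16 for TMM factors alone. Alternatives changed the read minimum, scaling, threshold, isoforms, depth, paralogues and GC content.

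The genes and lists were chosen with earlier results of these data known. All 44 genes are accounted for; of other eye genes, at most 6 per direction were named by size of ratio among those called with 50 reads or more, and the Hspb genes were added after their values were seen. Some genes of these lists are not reported here.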

Additional observations from a re-analysis of the deposited data

How the results depend on the processing

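Counts, medians and their difference gave 81 values under 13 alternatives, 2 of them added after seeing the data. Of these values 72 stayed within set limits, 8 moved and 1 reversed. Counts had to stay within 1.5 times. Medians had to keep their sign within an interval over genes, -2.01 to 0.60 for lens and -1.67 to 1.76 for retina. The limit for the difference was set from the wider interval. These limits for medians and difference are so wide that staying within them says little. With a minimum of 50 reads, 4 retina genes were higher and 2 lower, and the retina median turned to 0.35. Without Cryga to Crygf, 1 lens gene was higher. At a 4-fold ratio 5 lens and 4 retina genes were lower, and with the whole interval past 2-fold 5 retina genes were lower. Without genes of 3 reads or fewer in 1 library, 3 retina genes were higher and 4 lower. The lens median stayed between -1.68 and -1.27, but its difference from the retina median was -1.62 with a minimum of 50 reads, -1.30 without genes whose main parts had opposite signs and -0.31 with the GC trend subtracted. Total-read scaling, TMM and thinning of the Clp1 KD library kept every higher or lower call of the 39 genes and added none, and kept the sign of all but Pde6h, not called, at 0.016 after thinning, where Pde6c had under 10 reads. Low counts limit many retina genes, and several of those called had 3 reads or fewer in 1 library. No paired analysis was possible because each group has 1 library, and for the same reason no library could be left out.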

Other observations

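Of other genes with crystallin in their name, which serve as enzymes or cytoskeletal proteins in many tissues, Cryz is given above as higher, and these were not called. Crym, a thyroid hormone binding protein, had 565 reads in Clp1 KD and 415 in Ctr (log2 ratio 0.067, 95% interval -0.12 to 0.25), Cryl1 1619 and 1100 (0.18, 0.068 to 0.29), Cryzl1 1040 and 794 (0.011, -0.12 to 0.15) and Crybg1 3806 and 2278 (0.36, 0.29 to 0.44). These were picked after their values were seen. Among nonvisual opsins, Opn3 had 569 reads in Clp1 KD and 690 in Ctr (-0.66, -0.82 to -0.49), and Opn5 had 9 and 0. The photoreceptor cadherin gene Cdhr1, also singled out after its values were seen, was read far more than the 44 genes, with 7646 reads in Clp1 KD and 1803 in Ctr (1.71, 1.63 to 1.78), and the disc membrane gene Prom1 had 273 and 11 (4.25, 3.39 to 5.27).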
